A study of Mus musculus with 11 samples.

Results

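Smc1a sites that lie inside acetylated chromatin of wild-type thymocytes are the subject here. A reproducible Smc1a site was a merged region with a peak in both Smc1a libraries, and it was kept if it overlapped, by at least 1 bp, a merged wild-type region of acetylated lysine 27 of histone H3 (H3K27ac) that had a peak in both wild-type libraries. Of 14848 reproducible sites, 3260 met the rule (22.0%, Wilson 95% interval 21.3 to 22.6), and they lay on 2639 of the 13937 acetylated regions. The rule used the Smc1a peaks and the wild-type H3K27ac peaks, so those values describe the sites. The H3K27ac peaks of the Rad21-deleted cells were not used to choose them. Sites taken from the peaks of Smc1a replicate 1 alone would number 5650.

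Cohesin is a ring-shaped protein complex built from Smc1a, Smc3, the kleisin Rad21 and a SA subunit. The ring holds DNA segments together, extrudes chromatin loops and is halted at many sites bound by CTCF. It is also found at active promoters and enhancers, where its loader Nipbl is enriched, and H3K27ac marks the active forms of both. In CD4+ CD8+ thymocytes, the stage at which Tcra is rearranged and selection begins, cohesin is known for its part in the folding of the antigen receptor loci.

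H3K27ac had been mapped by chromatin immunoprecipitation and sequencing in 2 Rad21 -/- (KO) and 2 wild-type (WT) libraries of sorted CD4+ CD8+ thymocytes from mice aged 6 weeks. In the KO, a floxed Rad21 allele was deleted by Cre under the control of Cd4, which is switched on at about this stage, and the WT were control littermates. Whether the controls carried the transgene or a floxed allele is not given in the sources used here. Smc1a had been mapped in 2 WT libraries, so the sites show where cohesin lay in WT cells. No Smc1a library of the KO was analysed here. The H3K27ac lists held 19503 and 20244 peaks in KO and 21973 and 15686 in WT, and the Smc1a lists held 25484 and 17726. The lists hold no reads, so the depth behind a call is unknown. Regions are given by mm9 position, and the cell type was not checked against marker genes, since no mm9 gene positions were used here.

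Smc1a sites inside acetylated chromatin were wide. Their median width was 1068 bp (10th to 90th percentile, 645 to 2257 bp), against 736 bp (505 to 1128 bp) at the 11588 other reproducible sites. A wide site is more likely to touch an acetylated region, so width is tied to the rule. The share of sites that met the rule was 5.76% below 500 bp and 18.1% between 750 and 1000 bp. It reached 62.4% between 1500 and 2000 bp and 92.9% from 3000 bp upwards, where 144 of 155 sites met it.

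Their rank by peak score depended on the library. The score is the authors' own value, and its percentile was taken within each list. In Smc1a replicate 1 the median percentile was 54.7 at sites inside acetylated chromatin and 70.7 at other sites, a difference of -16.0. In replicate 2 the medians were 58.2 and 56.8, a difference of 1.38. The first list thus ranked these sites below the rest, and the second ranked both alike within a few percentiles. Averaged over both lists, the median percentile was 54.4 inside acetylated chromatin and 62.2 elsewhere, a mean that hides this disagreement. The difference was -7.85. With both sites and ranks taken from 1 list, it was -11.5 in Smc1a replicate 1 and -3.96 in replicate 2. The near-equal ranks in replicate 2 thus apply to sites called in both lists.

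**Figure D1:**
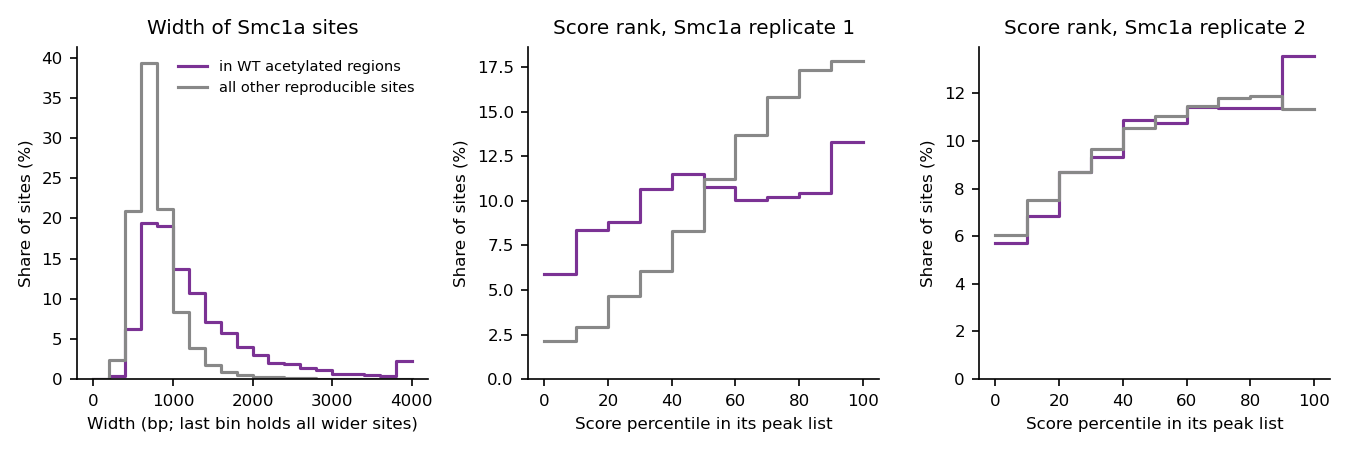
Widths (bp) and score percentiles of Smc1a sites in both Smc1a libraries, as the share of sites (%) in each bin, for the 3260 sites in WT acetylated regions and the 11588 other reproducible sites. The sites in acetylated regions are shifted to greater widths (medians of 1068 and 736 bp), and their score ranks are shifted down in replicate 1 but not in replicate 2.

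The 5 widest sites show what a broad Smc1a call inside acetylated chromatin looks like. The widest, on chromosome 6 from 71270846 to 71281829 (10984 bp), lay in an acetylated region of 30305 bp and was covered over its full width in both KO and in both WT libraries. Its Smc1a scores were 521.54 and 222.07. On chromosome 11, a site of 8977 bp (87566395 to 87575371) scored 1729.18 and 684.4 for Smc1a and reached past the end of its region. KO peaks covered 8715 and 7950 bp of it, and WT peaks covered 8784 and 8343 bp. On chromosome 8, a site of 8213 bp (123056621 to 123064833) lay under KO peaks over 7869 and 6178 bp and under WT peaks over 7977 and 7875 bp. The remaining wide sites, on chromosome 9 from 32516825 to 32524291 and on chromosome 4 from 102659427 to 102666716, were fully covered in all 4 libraries. All 5 kept an H3K27ac call in both KO libraries.

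Most acetylated regions with a site held a single one. Of the 2639 regions, 2243 (85.0%) had 1 site, 280 had 2, and 26 had at least 5. Those 26 regions carried 166 sites. The share of acetylated regions with a site grew with length. It was 7.67% of regions under 1500 bp, 11.2% between 1500 and 3000 bp, 23.7% between 3000 and 6000 bp, 49.0% between 6000 and 12000 bp and 80.5% of the 313 regions from 12000 bp upwards. Per Mb of acetylated sequence there were 61.4 sites in regions under 1500 bp, 51.6 between 1500 and 3000 bp, 63.7 between 3000 and 6000 bp, 80.7 between 6000 and 12000 bp and 104 from 12000 bp upwards.

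The region with the most sites spanned chromosome 5 from 66239513 to 66281222 (41710 bp) and held 12, which filled 49.8% of its length. KO libraries covered 41710 and 38834 bp of it, and WT libraries 41488 and 41541 bp. Its sites ranged from 673 to 6046 bp in width and from 10.1 to 88.7 in mean score percentile. A region on chromosome 9 from 32499843 to 32571085 (71243 bp) held 11 sites, among them 1 of the 5 widest. It was covered over 68859 and 64255 bp in KO and over 71157 and 69869 bp in WT. KO replicate 2 split it into 6 peaks and KO replicate 1 into 3, against 1 and 2 peaks in WT. The region on chromosome 6 from 41480280 to 41513180 (32901 bp) held 10 sites over 52.4% of its length, and libraries covered 31603 and 31129 bp of it in KO and 32618 and 32901 bp in WT. Every site of the 3 regions had a peak in all 4 libraries.

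Within their regions the sites lay toward the centre. Position was measured as the distance of the site's midpoint from the region's centre, from 0 at the centre to 1 at the edge, for which even placement gives a median of 0.5. The median was 0.329, and it lay below 0.5 on each of 20 chromosomes with sites. Of the 3260 sites, 50.5% (48.8 to 52.2) were in the inner band, the first of 3 bands of equal width, and 18.5% (17.2 to 19.9) were in the outer band, beyond 0.667. The median distance to the nearest edge was 1397 bp, and 2874 sites (88.2%) lay wholly inside their region. Another 381 crossed 1 edge, and 5 held the whole region.

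Central placement weakened in long regions. The median position was 0.241 in regions between 1500 and 3000 bp, 0.298 between 3000 and 6000 bp, 0.386 between 6000 and 12000 bp and 0.490 from 12000 bp upwards, which is close to even placement. Sites near the edge ranked higher. The median of the mean score percentile was 49.1 at positions up to 0.2 and 68.8 at positions beyond 0.8, while the median width was 1075 bp in the first and 997 bp in the second.

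**Figure D2:**
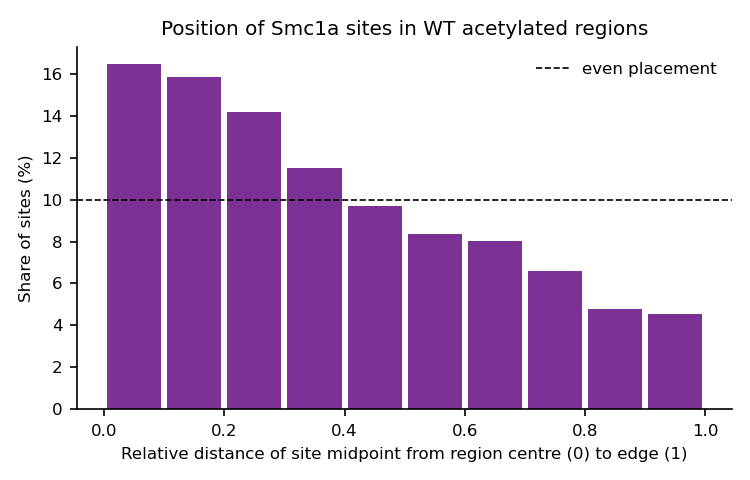
Share of the 3260 sites (%) by relative distance of their midpoint from the centre (0) to the edge (1) of the WT acetylated region, in bins of equal width. The dashed line is even placement, and the share falls from 16.5% in the bin at the centre to 4.54% in the bin at the edge.

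Most of these cohesin sites kept an H3K27ac call in Rad21-deleted cells. A KO peak lay at the site itself for 3055 sites (93.7%, 92.8 to 94.5) in KO replicate 1 and for 2933 (89.97%, 88.9 to 91.0) in KO replicate 2, against 23.4% and 22.6% of all reproducible Smc1a sites. In WT, whose peaks chose the regions, a peak lay at 3213 (98.6%) and 3218 sites (98.7%). Both KO libraries had a peak at 2891 sites (88.7%, 87.5 to 89.7), and neither had one at 163 (5%, 4.30 to 5.80). Across all 13937 WT regions, 89.0% had a peak of both KO libraries somewhere in the region and 4.08% had none. Among all reproducible Smc1a sites the shares were 21.3% with a peak of both KO libraries at the site and 75.3% with none. Of the sites, 93.9% (93.0 to 94.6) lay in a region with a peak of both KO libraries and 2.18% in a region with none. These shares count a region once for each of its sites. Regions with a site were also longer (median 3998 bp, against 2405 bp without one), so the shares over all regions are not a like comparison.

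Of the other 206 sites, 164 were called in KO replicate 1 alone and 42 in KO replicate 2 alone. KO peaks covered 92.1% and 88.1% of the bases of all sites, and WT peaks 95.4% and 95.8%. The bases of 2607 and 2389 sites were covered from end to end in KO, and those of 2687 and 2750 sites in WT. Both KO values lay below both WT values for each measure, a direction that the choice of the sites on WT peaks favours, so no test was made. A missing peak is a missing call and does not show that acetylation was absent.

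The reverse choice was set beside the choice on WT peaks. It is no exact mirror, since the H3K27ac lists differ in length, so it does not measure the effect of the choice. Of 3278 reproducible Smc1a sites in regions called in both KO libraries, 96 (2.93%, 2.40 to 3.56) had no WT peak at the site. Counted over regions, 4.18% of the 16523 KO regions had no WT peak, and 4.08% of the 13937 WT regions had no KO peak. The share of sites without a call in the other genotype was therefore 5% for sites chosen on WT and 2.93% for sites chosen on KO. It was higher for the WT choice on 16 of 20 chromosomes, which share the same libraries and are not replicates. Leaving out WT replicate 1 turned this order, with shares of 5.96% and 9.49%. It held without WT replicate 2 (9.12% and 4.24%), without KO replicate 1 (10.03% and 4.53%) and without KO replicate 2 (6.29% and 3.94%). WT replicate 2 has the shortest H3K27ac list, and its part in these shares was not tested beyond this.

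A choice of sites that treats the genotypes alike allowed a test over libraries. It took the 3711 reproducible Smc1a sites on regions called in at least 2 of the 4 H3K27ac libraries, whichever they were. A peak lay at the site for 92.3% and 88.3% in KO and for 94.7% and 88.1% in WT (means 90.3 ± 2.80% and 91.4 ± 4.71%, SD, n = 2 each). The difference of -1.10 points was smaller than the spread between libraries of a genotype (two-sided exact permutation test, p = 1). Peaks covered 89.7% and 85.7% of the bases of these sites in KO and 91.8% and 86.8% in WT, a difference of -1.61 points (exact permutation test, p = 0.667). With 2 libraries against 2 the smallest p is 0.333. The first difference turned to 2.22 points without WT replicate 1, 0.876 without KO replicate 2 and 1.48 when sites came from Smc1a replicate 1 only. Under the same 3 settings the second turned to 0.919, 0.385 and 1.66 points. Leaving out an H3K27ac library removed it from the mean only, since the regions still came from all 4 lists. Other settings widened both differences. With lists cut to equal size the differences were -3.04 and -3.03 points, with both KO libraries below both WT libraries (exact permutation test, p = 0.333 for each). With the upper 75% of each list they were -2.25 and -2.65 points, without KO replicate 1 -3.09 and -3.60 points, and without WT replicate 2 -4.43 and -4.14 points. A 50% overlap moved the first to -1.95 points, and sites from Smc1a replicate 2 alone moved it to -1.90 points.

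Where the KO call was missing, the acetylated region itself was often still called. Of the 163 sites without a KO peak, 77 (47.2%) were in regions that had a peak of both KO libraries elsewhere, 15 in regions with a peak of 1, and 71 (43.6%) in regions with no KO peak. In the first set the nearest KO peak lay a median of 448 bp away in replicate 1 and 726 bp in replicate 2. In the last set the medians were 7726 and 8266 bp, and 29 and 33 of the 71 sites lay more than 10000 bp from a KO peak. The split by region itself bears on these distances, and 7 and 5 of the 71 sites lay within 1000 bp of a KO peak.

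The sites without a KO call were narrower, nearer to the edge and on weaker WT peaks. Their median width was 841 bp, against 1111 bp for the 2891 sites with a peak of both KO libraries. They lay at a median position of 0.670, against 0.306, with 52.1% in the outer band, against 15.4%. The WT peak on which they lay had a median score percentile of 41.1 in WT replicate 1 and 41.0 in WT replicate 2, against 89.0 and 86.2. Their own Smc1a score percentile was higher, with a median of 69.3, against 53.3.

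The share of sites with a call was lower toward the region's edge. An edge is where the merged peaks end, so this direction is favoured by how the regions were drawn. A KO peak lay at 97.4% and 94.9% of the 1054 sites at positions up to 0.2 and at 75.3% and 65.5% of the 304 sites at positions beyond 0.8. WT shares were 99.9% and 99.9% at the centre and 88.5% and 90.8% at the edge. Between the outer band and the rest the KO shares differed by -12.6 points in replicate 1 and -17.0 points in replicate 2, and their mean was lower in the outer band on 19 of 20 chromosomes. Crossing an edge went with the same contrast, with KO shares of 79.5% and 74.1% at the 386 sites not wholly inside and 95.6% and 92.1% at the rest.

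The contrast between edge and centre was seen under both choices of sites. Both drew the edges from merged peaks, so the reverse choice gives no independent support. At sites chosen on KO regions, a WT peak lay at 87.6% and 79.8% of the sites in the outer band and at 97.6% and 92.9% of the rest. The differences were -10.002 points in WT replicate 1 and -13.1 points in WT replicate 2. Whether the contrast differed between the choices was not tested.

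**Figure D3:**
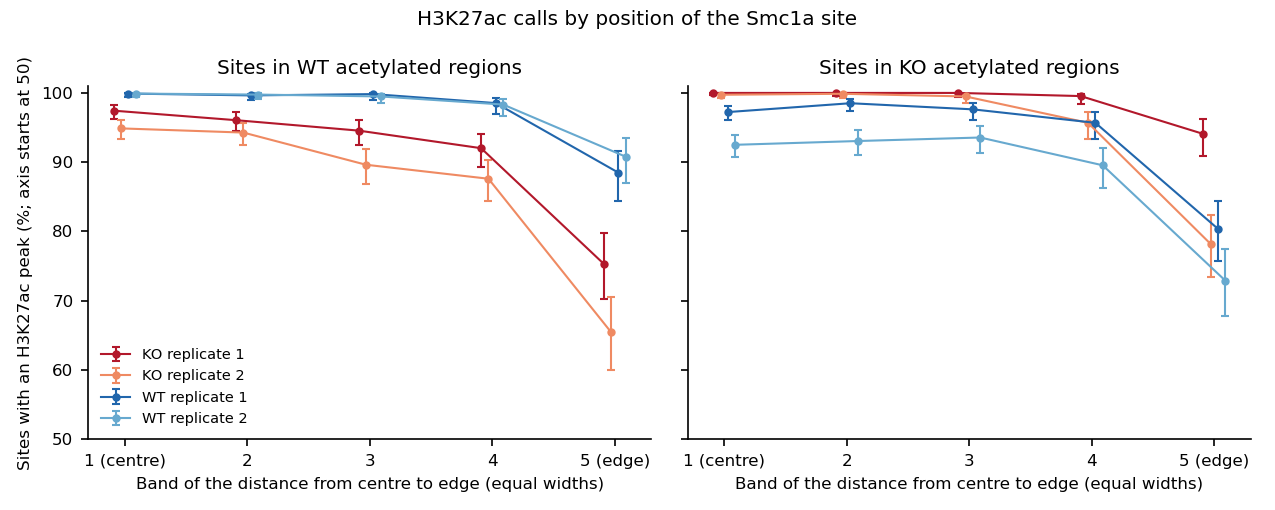
Share of sites (%) with an H3K27ac peak at the site in each KO and WT library, by band of the distance from region centre to edge (5 bands of equal width), for sites in WT regions (left) and in KO regions (right), with Wilson 95% intervals. The vertical axis starts at 50. The share is lowest next to the edge in every library, and in the left panel it is 75.3% and 65.5% there in KO.

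The share of sites with a KO call was higher among wide sites and in long regions. A KO peak lay at 96.8% and 95.3% of the widest tercile of sites, ranked and split into 3 equal classes, and at 90.1% and 84.1% of the narrowest tercile. A wide site can touch a peak more easily, so this measure leans on width. By region length, the shares were 96.5% and 94.0% in the longest tercile and 90.5% and 84.8% in the shortest tercile. The mean difference by region length was 7.59 points, but leaving out WT replicate 1 gave 14.5, leaving out WT replicate 2 gave 24.4, and merging peaks within 1000 bp gave 3.64. The strength of the WT peak made a larger contrast than site width or region length. KO shares were 98.3% and 96.7% in the tercile with the highest WT score percentile and 85.5% and 78.0% in that with the lowest. Under the reverse choice, WT shares at sites in KO regions differed in the same direction. Highest and lowest terciles differed by 4.57 and 4.20 points by site width and by 5.76 and 16.7 points by region length. By KO peak score they differed by 8.87 and 22.7 points. The 3 contrasts are thus not particular to the KO calls, and whether they differed between the choices was not tested.

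The share of sites with an H3K27ac call in KO was lower at high Smc1a scores. A KO peak lay at 90.3% (88.4 to 91.9) and 85.9% (83.7 to 87.9) of the tercile with the highest mean score percentile. In the middle tercile it lay at 95.8% and 92.8%, above both other terciles, so the share did not fall in steps with score. In the tercile with the lowest it lay at 95.03% (93.6 to 96.2) and 91.2% (89.3 to 92.7). The differences between the highest and lowest terciles were -4.70 and -5.26 points. The mean over both KO libraries was lower at high scores on 17 of 20 chromosomes. WT shares differed by -0.554 and -0.830 points, but the rule held these close to the maximum. With the rank taken from Smc1a replicate 1 the KO differences were -4.61 and -5.62 points, and with that from replicate 2 they were -3.69 and -4.61 points. The mean of the KO differences was -4.98 points. It was -8.15 without WT replicate 2, -2.92 over sites taken from Smc1a replicate 1 alone and -1.66 over sites taken from Smc1a replicate 2 alone. Neither KO call was used in choosing or ranking the sites, and sites of a library share its depth, so the intervals cover counting error only.

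High scores went with other properties that bear on a call. The tercile with the highest scores was wider (median 1319 bp, against 884 bp), in longer regions (5681 bp, against 4098 bp) and with a larger share in the outer band of the distance (26.7%, against 13.5%). Their WT peaks also ranked higher, with a median score percentile of 89.4 against 83.8 in WT replicate 1 and 85.2 against 81.1 in WT replicate 2. The contrast was therefore taken within classes. In the narrowest tercile of sites the shares at high and low scores differed by -11.4 points in KO replicate 1 and -13.0 in KO replicate 2. In the widest tercile they differed by -5.23 and -5.03 points. Inside the inner and middle bands the differences were -3.09 and -2.29 points, and in the outer band -2.64 and -7.17 points.

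The contrast was larger at sites on weak WT peaks. In the tercile with the lowest WT H3K27ac score percentile, a KO peak lay at 76.2% and 68.3% of high-scoring Smc1a sites (n = 353) and at 89.9% and 82.2% of low-scoring ones (n = 398). The differences were -13.7 and -13.9 points. In the tercile with the highest WT score percentile they were 0.670 and 0.522 points, and in the tercile of sites in the longest regions 0.0948 and -0.649 points. The difference between these classes was not tested.

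Under the reverse choice the contrast depended on which Smc1a list gave the rank. At sites in KO regions, WT shares at high and low Smc1a scores differed by -1.47 points in WT replicate 1 and -4.40 in WT replicate 2. With the rank of Smc1a replicate 1 alone they differed by -3.39 and -9.62 points, and with that of replicate 2 alone by 0.820 and 2.28 points. In the tercile of these sites that lay on the weakest KO peaks, the differences were -3.75 and -11.8 points. Ranked by the mean percentile, sites on weak H3K27ac peaks were called less often in the other genotype at high Smc1a scores. This held under either choice, in all 4 libraries, but was not examined for each Smc1a list alone.

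**Figure D4:**
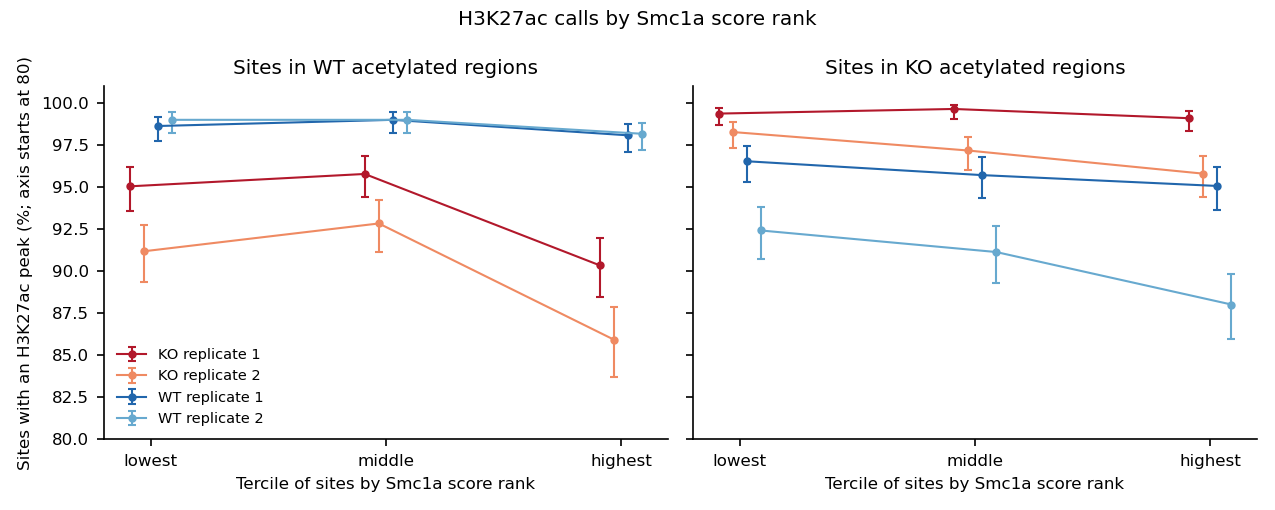
Share of sites (%) with an H3K27ac peak at the site in each KO and WT library, by tercile of the sites in mean Smc1a score percentile, for sites in WT regions (left) and in KO regions (right), with Wilson 95% intervals. The vertical axis starts at 80. In the left panel the KO shares at the highest scores, 90.3% and 85.9%, lie below those at the lowest, 95.03% and 91.2%.

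The 5 sites with the highest mean score percentile all kept a KO call. The highest, on chromosome 13 from 13608441 to 13610115 (1675 bp), had Smc1a scores of 2651.12 and 2018.24. KO peaks with scores of 651.06 and 701.72 covered 1485 and 1501 bp of it, and WT peaks with scores of 984.12 and 686.13 covered 1422 and 1661 bp. It started just outside the edge of its region. The site on chromosome 15 from 97679501 to 97681945 (2445 bp) lay at the edge of a region of 19676 bp, at a position of 0.933. Its KO peaks had scores of 414.13 and 223.4, and its WT peaks had scores of 3100 in both libraries, a value at which many peaks of the lists are tied. KO peaks nonetheless covered 1913 and 1652 bp of it, and WT peaks 1608 and 1884 bp. The sites on chromosome 3 from 21834313 to 21836754, on chromosome 9 from 32747484 to 32749894 and on chromosome 2 from 117263624 to 117265700 were covered from end to end in all 4 libraries.

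Among sites without a KO peak, the 5 with the highest Smc1a scores differed in setting. The highest, on chromosome 19 from 34575022 to 34576431 (1410 bp), had Smc1a scores of 1905.34 and 1315.86. It lay at a position of 0.920 in a WT region of 21983 bp. The nearest KO peaks began 91 and 658 bp away, and WT peaks covered 1410 and 1229 bp of it with scores of 1590.66 and 3100. This was an edge site of a strong region, and the KO calls stopped short of it.

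The others lay on WT peaks of low score, and 3 of these 4 lay in regions under 3000 bp. On chromosome 7, the site from 121424723 to 121425961 lay in a region of 5679 bp and had no KO peak within 6023 and 1713 bp, and its WT peaks had scores of 62.75 and 74.01, close to the lowest of their lists (50.01 and 50). On chromosome 2, the site from 152591643 to 152594009 (2367 bp) nearly filled its region of 2711 bp, with KO peaks 5741 and 5680 bp away and WT scores of 119.72 and 135.06. On chromosome 6, the site from 34143551 to 34144391 lay 9204 and 9436 bp from a KO peak, with WT scores of 70.11 and 207.28. The last, on chromosome 7 from 85910316 to 85911823, lay 1394 and 1511 bp from a KO peak, with WT scores of 120.35 and 89.97.

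Regions with sites were covered in KO about as fully as those without. KO peaks covered 86.8% and 78.2% of the bases of the 2639 WT regions with a site and 84.8% and 76.1% of those of the 11298 regions without one. WT peaks covered 93.7% and 94.4% in the first set and 93.4% and 90.3% in the second. Within regions, the bases of the sites were better covered than the other bases of the same regions. In KO the shares were 94.1% against 84.0% in replicate 1 and 90.2% against 73.6% in replicate 2. In WT they were 97.9% against 92.1% and 98.4% against 92.8%. The mean KO difference of 13.3 points was 6.96 in regions called without WT replicate 2. It also depended on the choice of regions. In regions called in both KO libraries, sites and other bases differed by 2.49 and 10.2 points in KO and by 6.30 and 4.29 points in WT. Sites lie toward the centre, and the edges of a region are where its libraries differ, so these values were next set beside the same positions of regions without a site.

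At equal length and position the contrast differed by length, position and library. In regions between 3000 and 6000 bp the midpoint of a site at a position up to 0.2 was covered in 99.1% and 97.1% of cases in KO, against 95.2% and 91.4% of the central bases of regions without a site. In WT the shares were 100% in both libraries, against 98.9% and 97.9%. Between 1500 and 3000 bp the KO shares at positions up to 0.2 were 95.03% and 90.1%, against 93.0% and 89.6%. At positions between 0.4 and 0.6 of those short regions they were 87.1% and 75%, against 90.1% and 83.7%. In WT replicate 2 the contrast was largest near the edge, where at positions beyond 0.8 of regions between 6000 and 12000 bp the shares were 91.2% at sites and 75.5% in regions without one. The comparison used regions from 1500 to 12000 bp, which leaves out 117 sites in shorter regions and 599 in longer ones. Over its 15 classes of length and position, coverage was higher at sites in 9 classes in KO replicate 1 and 12 in KO replicate 2. In WT it was higher in 12 and 15 classes. These are descriptions of the libraries, since bases of a region are not independent.

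H3K27ac peaks on which the sites lay were among the larger peaks of each list. Their median width was 4080 and 3529 bp in KO and 4113 and 4210 bp in WT, against 2081 and 1852 bp over all peaks of the KO lists and 1925 and 2164 bp over all peaks of the WT lists. Relative to its own list, the peak at a site was 1.961 and 1.91 times the median width in KO and 2.14 and 1.95 times in WT. The median score percentile of these peaks was 86.4 and 85.4 in KO and 87.2 and 83.6 in WT. Width in bp was smaller in each KO library than in either WT library, a direction that the choice of the sites on WT peaks favours. Relative width and score rank overlapped between the genotypes. At the 2867 genotype-neutral sites with a peak of all 4 libraries, relative width did not overlap, at 2.03 and 1.93 times in KO and 2.26 and 2.06 times in WT. Width there was 4233 and 3567 bp in KO and 4346 and 4464 bp in WT. Score percentiles did overlap, at 87.7 and 86.0 in KO and 89.1 and 86.2 in WT. These differences were not tested.

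Sites at the limit of the rule had mixed calls. Of the 3260 sites, 13 overlapped their region by under 100 bp, the least by 12 bp. A KO peak lay at 53.8% and 38.5% of them, and a WT peak at 76.9% and 53.8%. A further 31 reproducible sites missed a region by under 100 bp, the nearest by 6 bp. Of these, 54.8% and 22.6% had a KO peak at the site, and 3.23% and 3.23% had a WT peak. Both sets were chosen by their place against WT regions. Missing a region holds down the WT shares of the 31 sites, so KO and WT cannot be compared there.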

How the data were processed

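H3K27ac was mapped in 2 KO and 2 WT libraries and Smc1a in 2 WT libraries. The 5 input libraries were not analysed here. Per the submitters' processing notes, Bowtie 0.12.8 and the build mm9 were used. The peak names point to MACS, per the file contents, and there is 1 list per library. Nothing in the sources used here gives the caller's version or settings. The deposited score of each peak is the authors' value. It was used for ranks and filters within a list, and scores of named sites are given as deposited. Depth is unknown.

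Overlapping or touching peaks were merged with Python 3.11.15 and numpy 2.4.6, and figures were drawn with matplotlib 3.10.9. A library held a site if 1 peak overlapped it by at least 1 bp. Terciles were taken by rank. Wilson 95% intervals cover counting error only. All chromosomes share the same libraries, so counts of chromosomes are not replication. Interval functions were tested on simulated data. The labels do not say whether libraries came from separate mice, so the exact permutation p-values measure the spread between these samples, which may be technical.

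The sites, the classes and the rule for named sites were chosen with earlier results of these data known. The rule named the 5 widest sites, the 5 with the highest mean score percentile, the 5 highest without a KO peak and the 3 regions with the most sites. Classes by WT peak strength, classes combined with score rank and the comparison with regions without a site were added after the first values were seen. So was the reverse choice by position, score, width, region length and peak strength. Alternatives were a stricter score, equal list sizes, a 50% overlap, merging within 1000 bp, other edge definitions, each library left out and a replicate block. No mm9 genome or annotation was used here, so sequences, motifs and genes are not given.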

Additional observations from a re-analysis of the deposited data

How the results depend on the processing

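Of 146 alternatives to 14 results, 87 stayed within the range set for them, 53 moved further and 6 changed sign. The 87 include alternatives that cannot alter a result. For both KO minus WT differences, an alternative stayed within range if its sign held and its p-value stayed on the same side of a cutoff. With so few libraries no p-value can pass that cutoff, so only the sign was judged for them. Both KO minus WT differences at sites chosen alike for both genotypes kept their sign with filtered, equal, merged or stricter-overlap settings (-3.04 to -1.35 points in calls, -3.03 to -1.66 in covered bases), and they changed sign with single libraries left out.

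Without 1 library at a time, the difference in calls ran from -4.43 to 2.22 points, with values above 0 without KO replicate 2 (0.876), WT replicate 1 (2.22) and Smc1a replicate 2 (1.48). That in covered bases ran from -4.14 to 1.66 points, with 0.385, 0.919 and 1.66 for the same libraries. The cause was not tested. The replicate number as a block gave -1.10 points (exact sign-flip permutation, p = 1) and -1.61 points (p = 0.5, the smallest that 2 pairs allow). Same-numbered libraries did not deviate together (correlation 0.00317 over the 3711 sites), and the labels give the number no meaning.

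The number of sites ran from 3260 to 5650 and the share without a KO peak from 4.16% to 10.03%, as fewer lists must then agree. The share with a peak of each KO library kept ran from 82.7% to 93.7%, where the highest value is that of KO replicate 1 alone. The share of KO-chosen sites without a WT peak ran from 2.58% to 9.49%. The median position ran from 0.324 to 0.331 and the share in the outer band from 17.9% to 19.1%. The difference in KO calls ran from -17.0 to -11.0 points by position, from -8.15 to -1.66 by Smc1a score and from 5.20 to 24.4 by region length. The excess width ran from 250 to 332 bp, the score percentile difference from -11.5 to -3.96 and the excess KO coverage of sites from 6.96 to 16.6 points.

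With the upper 75% of each list, 2124 sites were left, of which 6.73% had no and 87.0% both KO peaks. Their median position was 0.357, 20.2% lay in the outer band, the difference by score was -6.43 points and the excess width 413 bp. Equal list sizes gave 6.71%, 86.0%, 0.357, 20.3%, -6.90 points and 427 bp. Merging within 1000 bp gave 6.04%, 87.1%, 0.389, 23.6% and -6.73 points, a difference of 3.64 points by region length and an excess coverage of 18.3 points. A 50% overlap gave 17.0% in the outer band and -5.54 points by score. The outermost 25% of the distance held 12.7% of sites and the 500 bp next to the edge 11.1%, with differences in KO calls of -19.8 and -22.9 points.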

Other observations

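The share of reproducible Smc1a sites that lay in WT acetylated chromatin differed along the genome. It was highest on chromosome 10 (27.1%, 234 of 862 sites), chromosome 13 (25.04%, 177 of 707) and chromosome 16 (25%, 135 of 540). It was lowest on chromosome 12 (17.2%, 104 of 604) and chromosome 8 (17.4%, 111 of 638), and none of the 5 sites on chromosome Y met the rule. The share of the sites without a KO peak ran from 3.16% on chromosome 7 to 8.65% on chromosome 12. The 9 of 104 sites behind the highest value are few, and chromosomes were not compared by a test.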
